A study of Mus musculus with 14 samples.

Results

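The genes described here are the Bcl2 family survival and death genes, chosen by name: the anti-apoptotic Bcl2, Bcl2l1, Mcl1 and Bcl2a1b and the pro-apoptotic Bcl2l11, Bax, Bak1, Bbc3, Pmaip1 and Bid. Of these 10 names, 9 matched a row among the 22255 genes of the deposited files, 3 anti-apoptotic and 6 pro-apoptotic. Bcl2a1b is not analysed here. They were read in 14 RNA libraries of Foxp3-expressing regulatory T cells (Tregs), which hold immune responses in check. All cells were Foxp3-YFP+ and all mice were 8 weeks old. Wild-type mice of the strain FoxP3-YFPCre+/+, with YFP and Cre recombinase expressed from Foxp3, gave spleen (4 libraries), lymph node (LN, 4) and Yumm1.7 melanoma (WT tumor, 3, replicates 2 to 4). The strain CD36floxed FoxP3-YFPCre+/- gave Yumm1.7 melanoma only (KO tumor, 3), with Cd36, a receptor that takes up fatty acids, deleted where Foxp3 drives Cre. The labels write Foxp3-YFPCre as +/+ in the wild type and +/- in the KO, so this difference and that in Cd36 cannot be told apart. Nothing there ties a replicate to its own animal, and the p-values below therefore rest on spread among libraries that could be purely technical. Yumm1.7 is a mouse melanoma cell line, and the labels do not say whether the mice that gave spleen and LN bore tumors.

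The Bcl2 family decides at the mitochondrial outer membrane whether a cell dies by the intrinsic pathway. Bax and Bak1 are the effectors that form pores and release cytochrome c. Bcl2, Bcl2l1 (Bcl-xL) and Mcl1 hold the effectors and their activators in check. The BH3-only proteins Bcl2l11 (Bim), Bbc3 (Puma), Pmaip1 (Noxa) and Bid bind these guardians in a groove, and some also activate the effectors directly. Noxa binds Mcl1 in preference to Bcl2. In Tregs, Mcl1 is known as the guardian on which survival depends most, and interleukin-2 signals keep it up against Bim.

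Across the groups 2 members stood out. Bcl2 was lower in both tumor groups than in either lymphoid tissue, and Pmaip1 was higher in both tumor groups than in LN. Levels of Mcl1, the most abundant member, and of the effectors Bax and Bak1 passed the test in none of 6 comparisons. No member passed it between KO and WT tumor. The counts per comparison and their background are given after the single members.

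The promoter of Bcl2, the only anti-apoptotic member whose level passed the test, is shown beside that of Mcl1, whose level did not. Of the members, 8 were looked up among the RefSeq promoters of GRCm38.p6. The sequences are the 250 bases before the RefSeq start, read 5′ to 3′ on the gene's strand, Bcl2 from chr1:106714291-106714540 (minus strand) and Mcl1 from chr3:95658471-95658720 (plus strand). Capitals mark matches, on either strand, to the GC box (GGGCGG) and the E-box (CANNTG).
Bcl2: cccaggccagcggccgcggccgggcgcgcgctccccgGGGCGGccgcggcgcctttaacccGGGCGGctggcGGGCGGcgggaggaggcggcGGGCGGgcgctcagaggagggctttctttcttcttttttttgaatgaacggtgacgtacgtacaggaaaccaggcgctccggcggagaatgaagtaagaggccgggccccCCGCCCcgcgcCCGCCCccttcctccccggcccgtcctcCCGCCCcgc
Mcl1: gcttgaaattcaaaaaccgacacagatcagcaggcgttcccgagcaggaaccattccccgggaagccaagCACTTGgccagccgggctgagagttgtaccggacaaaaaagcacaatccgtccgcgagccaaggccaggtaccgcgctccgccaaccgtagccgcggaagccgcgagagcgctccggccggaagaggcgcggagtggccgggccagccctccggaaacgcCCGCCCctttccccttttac
Bcl2 has 7 GC box matches and Mcl1 has 1, with 1 E-box match in Mcl1 and 0 in Bcl2. Of 32851 promoters of this length 32.7% hold the GC box and 66.2% the E-box. Neither promoter held the AP-1 letters TGANTCA (6.75% of promoters), the CRE letters TGACGTCA (1.55%), the FOXO letters GTAAACA (3.17%) or the STAT letters TTCNNNGAA (7.02%). The bases were 74.8% G or C in Bcl2 and 64.4% in Mcl1, against a median of 52.4% over all promoters.

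Values are FPKM, fragments scaled to transcript length and library size, so levels of different genes can be compared per length. Depth estimated from the steps between low values was 10.7 to 21.4 M reads per library, the smallest depth that made these values whole reads. Depths 2 times as large make them whole nearly as often, so the depth and each 3-read level given here are uncertain by that factor. Per library 7469 to 8307 genes reached 1 FPKM. Cd36 had a value of 0 in each LN and WT tumor library, in 1 of 4 spleen and in 2 of 3 KO tumor libraries (the other at 1.06 FPKM), so its deletion could not be read from the KO libraries. The Treg label was checked with Foxp3, Il2ra, Ikzf2, Ctla4, Tnfrsf18, Cd4 and Cd3e, all 7 detected in every group. Their summed level was 419 to 589 FPKM in the lymphoid and 709 to 955 FPKM in the tumor libraries. Foxp3 itself stood at 3.54 to 11.97 FPKM in WT tumor and 8.67 to 42.4 FPKM elsewhere. Transcripts of other cells were present: 12 macrophage or monocyte markers summed to 273 to 712 FPKM in spleen and 307 to 415 FPKM in KO tumor. They summed to 4.08 to 36.1 FPKM in LN and 1.18 to 107 FPKM in WT tumor. In WT tumor 10 of the 12 were detected, with Cd68 and Adgre1 at 0. In each other group 11 were detected, with Cd14 at 0. In bulk libraries fewer cells of a type and less RNA per cell cannot be told apart.

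**Figure D1:**
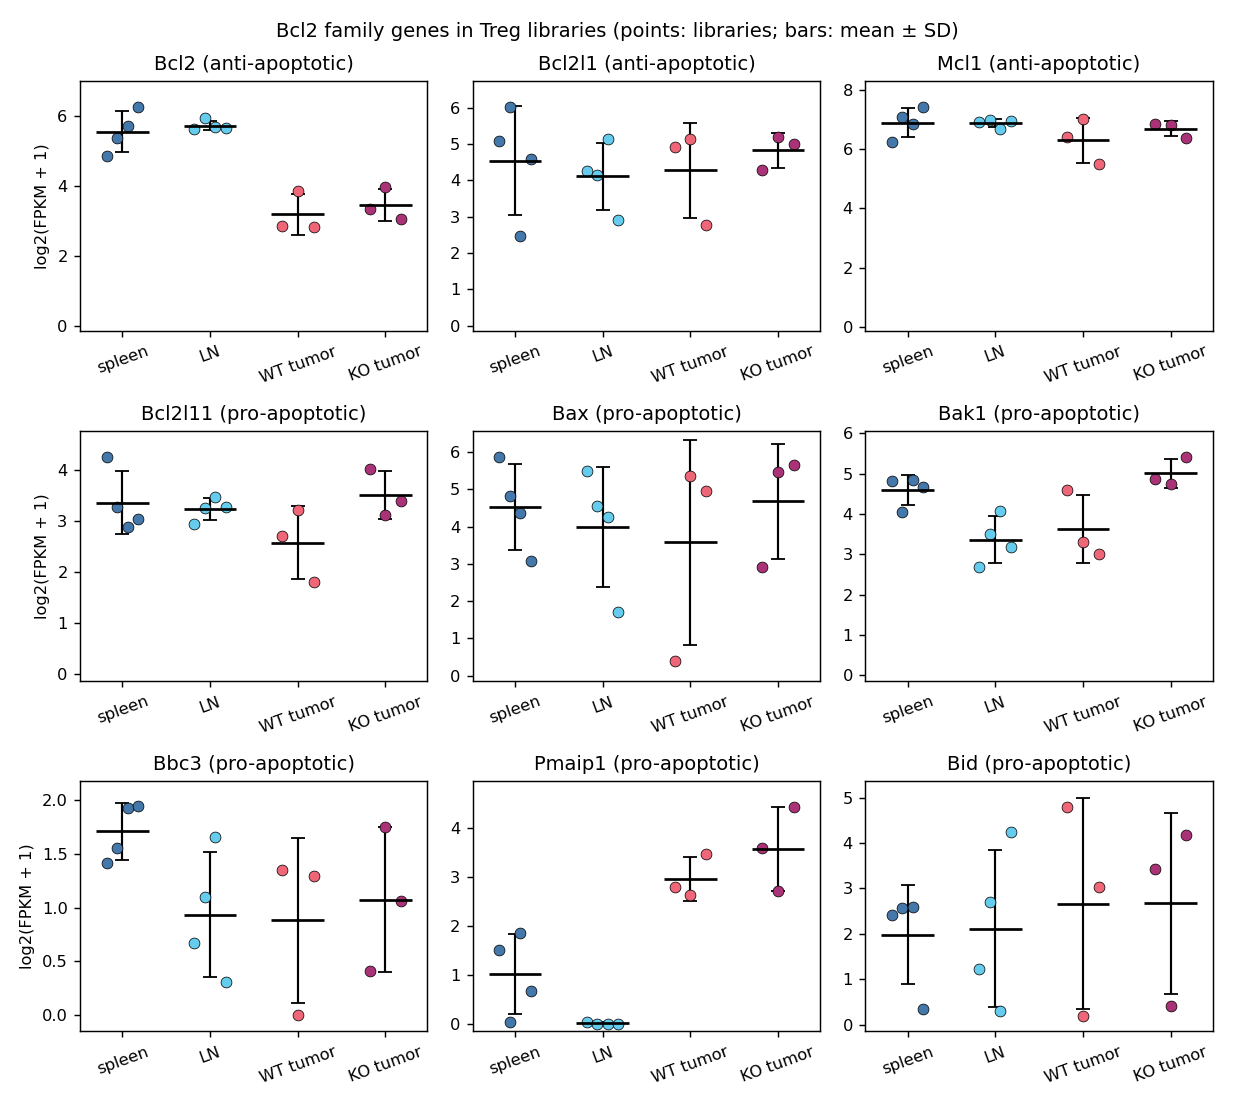
Level of each member in log2(FPKM + 1) (y axis) in the 4 groups (x axis), with a point per library, ordered by replicate number, and the mean ± SD as bars. Bcl2 points of both tumor groups lie below all lymphoid points, Pmaip1 points of both tumor groups lie above them, and the groups overlap for Mcl1, Bcl2l1, Bax and Bid.

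Bcl2, the founding survival gene of the family (chromosome 1, 106538178 to 106714274, minus strand, GRCm38), stood at 27.8, 40.3, 51.6 and 74.6 FPKM in spleen 1 to 4. In LN 1 to 4 it stood at 48.4, 59.6, 50.1 and 49.1 FPKM. WT tumor 2 to 4 had 6.28, 13.6 and 6.08 FPKM, and KO tumor 1 to 3 had 9.08, 14.5 and 7.32 FPKM. The highest tumor library thus lay below the lowest lymphoid library, and the 2 lymphoid groups and the 2 tumor groups each overlapped. On the log2(FPKM + 1) scale Bcl2 fell by 2.36 ± 0.43 (SE) from spleen to WT tumor (limma adjusted p = 0.0135). From LN to WT tumor it fell by 2.53 ± 0.43 (adjusted p = 0.00481). KO tumor differed from spleen by -2.10 ± 0.43 (adjusted p = 0.0132) and from LN by -2.27 ± 0.43 (adjusted p = 0.00628), comparisons that share the spleen and LN libraries with those of WT tumor. KO tumor against WT tumor differed by 0.26 ± 0.64 (adjusted p = 0.957) and LN against spleen by 0.17 ± 0.40 (adjusted p = 0.932). The call against spleen was lost without WT tumor 2 (adjusted p = 0.0529) and, for KO tumor, without KO tumor 1 (0.0580) or KO tumor 3 (0.0717). In a limma fit of the 2 groups only, the adjusted p was 0.0779 for WT tumor and 0.0547 for KO tumor against spleen. Both calls against LN were kept in all alternatives run, 14 for WT tumor and 13 for KO tumor.

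An overlapping gene and markers of other cells had the following levels beside Bcl2. D630008O14Rik, on the opposite strand within the span of Bcl2, had 7.92 to 19.9 FPKM in spleen and 1.88 to 14.9 FPKM in LN, against 0 to 1.15 FPKM in WT tumor and 0.145 to 4.73 FPKM in KO tumor. The Smart-Seq2 protocol does not mark strand, so reads of the overlapping parts of both genes cannot be told apart. B cell markers (8 of 8 detected in each group) summed to 75.8 to 324 FPKM in spleen, 49.6 to 68.3 in LN, 7.46 to 100.3 in WT tumor and 19.3 to 59.2 in KO tumor. The macrophage sums were 273 to 712 FPKM in spleen, 4.08 to 36.1 in LN, 1.18 to 107 in WT tumor and 307 to 415 in KO tumor. The part of B cells or macrophages in the Bcl2 difference was not tested. The 3 genes whose log2(FPKM + 1) pattern over the 14 libraries was most like that of Bcl2, among 9252 searched, were the ribosomal protein gene Rps2 (Pearson r = 0.935), the receptor gene Gpr83 (0.928) and Trim28, a transcriptional corepressor (0.913). The points share library and group, and r is a description.

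Mcl1, the short-lived guardian bound by Noxa (chromosome 3, 95658788 to 95663176), had the highest mean level of all members in every group. It stood at 75.2, 135, 113 and 169 FPKM in spleen 1 to 4 and at 119.98, 126, 101 and 123 FPKM in LN 1 to 4. WT tumor 2 to 4 had 83.5, 127 and 43.9 FPKM, and KO tumor 1 to 3 had 115, 112 and 82.9 FPKM. The groups overlapped, with WT tumor 4 lowest of all libraries. Against spleen the WT tumor difference was -0.60 ± 0.37 (limma adjusted p = 0.502) and against LN -0.59 ± 0.37 (adjusted p = 0.475). It was -0.21 ± 0.35 (adjusted p = 0.854) for KO tumor against spleen and 0.39 ± 0.43 (adjusted p = 0.868) for KO against WT tumor.

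Bcl2l1, which encodes Bcl-xL (chromosome 2, 152780668 to 152831728), varied widely within groups. Spleen 1 to 4 had 33.0, 63.3, 4.57 and 23.1 FPKM, LN 1 to 4 had 18.05, 16.6, 33.8 and 6.49 FPKM. In WT tumor 2 to 4 the levels were 29.0, 34.0 and 5.82 FPKM and KO tumor 1 to 3 had 18.4, 35.5 and 30.9 FPKM. Each of the first 3 groups held a library under 7 FPKM, and KO tumor did not. Its 6 differences lay between -0.44 ± 0.76 (LN against spleen) and 0.72 ± 0.78 (KO tumor against LN), and the smallest limma adjusted p was 0.795.

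Among the BH3-only genes, Pmaip1 (Noxa, induced by p53 and by stress; chromosome 18, 66458533 to 66465565) was near or at 0 in LN. It stood at 1.83, 0.0307, 2.60 and 0.593 FPKM in spleen 1 to 4 and at 0.0355, 0, 0 and 0 FPKM in LN 1 to 4. WT tumor 2 to 4 had 5.88, 5.15 and 9.99 FPKM, and KO tumor 1 to 3 had 11.03, 5.52 and 20.3 FPKM. Every tumor library was above every lymphoid library. In LN, 3 reads over the 2727 bp transcript would give 0.0514 to 0.0597 FPKM at the smallest depth, counting error only, and all LN values lay under that level. At a depth 2 times as large the level would be lower, and the value of LN 1 may lie above it. On the log2(FPKM + 1) scale Pmaip1 rose by 2.94 ± 0.56 from LN to WT tumor (limma adjusted p = 0.0103) and by 3.56 ± 0.60 from LN to KO tumor (adjusted p = 0.00269). Both calls against LN were kept in all alternatives run, 14 for WT tumor and 13 for KO tumor, and since LN is near 0 these sizes depend on the pseudocount (5.98 and 6.65 with 0.1). From spleen it rose by 2.55 ± 0.60 to KO tumor (adjusted p = 0.0279), a call lost without spleen 2 (0.0795), spleen 4 (0.0672), KO tumor 1 (0.0956) or KO tumor 3 (0.146). WT tumor against spleen differed by 1.94 ± 0.56 and did not pass (adjusted p = 0.112). KO against WT tumor differed by 0.62 ± 0.68 (adjusted p = 0.873) and LN against spleen by -1.004 ± 0.52 (adjusted p = 0.552).

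Pmaip1 entered the tests through 3 of 3 libraries of each tumor group and 2 of 4 of spleen that reached 1 FPKM, with 0 of 4 of LN. CD8 T or NK markers (7 genes) summed to 60.6 to 198 FPKM in WT tumor and 36.4 to 108 FPKM in KO tumor. They summed to 8.02 to 114 FPKM in spleen and 0.172 to 93.8 FPKM in LN. All 7 were detected in spleen and 6 in each tumor group, with Ncr1 at 0. In LN 5 were detected, with Ncr1 and Klrb1c at 0. The macrophage sums were 1.18 to 107 FPKM in WT tumor, 307 to 415 in KO tumor, 273 to 712 in spleen and 4.08 to 36.1 in LN. The part of these other cells in the Pmaip1 level was not tested. The patterns most like that of Pmaip1 were those of the orphan receptor gene Nr4a2 (r = 0.950), of Odc1, the first enzyme of polyamine synthesis (0.941), and of Tnfrsf9, the costimulatory receptor 4-1BB (0.935).

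Bcl2l11, the gene of Bim (chromosome 2, 128126038 to 128162547), which removes lymphocytes after cytokine loss, stood at 17.99, 8.61, 6.37 and 7.16 FPKM in spleen 1 to 4 and at 6.65, 8.56, 10.01 and 8.59 FPKM in LN 1 to 4. Levels in WT tumor 2 to 4 were 5.51, 8.28 and 2.46 FPKM and KO tumor 1 to 3 had 15.2, 7.68 and 9.39 FPKM. All groups overlapped, and the largest difference was 0.93 ± 0.68 for KO against WT tumor (limma adjusted p = 0.782).

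Bbc3, the gene of Puma (chromosome 7, 16308393 to 16318205), stood below 3 FPKM in every library. Spleen 1 to 4 had 1.67, 1.93, 2.80 and 2.83 FPKM. LN 1 to 4 had 0.595, 1.14, 2.15 and 0.240 FPKM, WT tumor 2 to 4 had 1.54, 0 and 1.45 FPKM, and KO tumor 1 to 3 had 0.328, 2.36 and 1.09 FPKM. All WT tumor values lay below all spleen values, though the difference of -0.83 ± 0.56 did not pass (limma adjusted p = 0.557). Bbc3 reads were few: at the smallest depth 3 reads would give 0.122 FPKM in WT tumor 3, where it was listed at 0.

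Bid, which links death receptors to mitochondria (chromosome 6, 120891930 to 120916853), varied widely within each group. LN ran from 0.234 to 17.9 FPKM, WT tumor 2 to 4 had 26.6, 0.136 and 7.16 FPKM, and KO tumor 1 to 3 had 9.77, 0.337 and 17.2 FPKM. Spleen ran from 0.279 to 5.06 FPKM. No difference exceeded 0.69 ± 1.17 (KO tumor against spleen), with a smallest limma adjusted p of 0.841. Bid overlaps Bcl2l13 on the opposite strand, which had 0.0219 to 7.36 FPKM.

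Bax, one of the pore-forming effectors (chromosome 7, 45461697 to 45466898), was as variable. Spleen 1 to 4 had 57.2, 27.2, 19.5 and 7.43 FPKM, LN 1 to 4 had 43.8, 22.4, 18.1 and 2.26 FPKM. The 3 WT tumor libraries had 0.322, 40.4 and 30.1 FPKM and KO tumor 1 to 3 had 6.53, 43.2 and 49.6 FPKM. Every group held both a library below 8 FPKM and a library above 40 FPKM. Differences ran from -0.95 ± 1.14 (WT tumor against spleen, limma adjusted p = 0.775) to 1.1 ± 1.3 (KO against WT tumor, adjusted p = 0.884).

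Bak1, the other effector (chromosome 17, 27019810 to 27029009), was highest in KO tumor and spleen. KO tumor 1 to 3 had 28.0, 26.0 and 41.4 FPKM and spleen 1 to 4 had 27.1, 15.7, 27.8 and 24.6 FPKM. WT tumor 2 to 4 had 23.0, 8.85 and 7.004 FPKM and LN 1 to 4 had 5.43, 10.4, 15.9 and 8.01 FPKM. All KO tumor values lay above all WT tumor and all LN values. The differences were 1.38 ± 0.59 for KO against WT tumor (limma adjusted p = 0.561), 1.65 ± 0.49 for KO tumor against LN (adjusted p = 0.0917) and -1.24 ± 0.50 for LN against spleen (adjusted p = 0.387). With array weights, which give less weight to noisier libraries, KO tumor against LN passed (1.65, adjusted p = 0.0427). The macrophage marker sum was also higher in KO tumor and spleen than in WT tumor and LN. Within WT tumor the library highest in Bak1, replicate 2, also had the highest sum, 107 against 9.08 and 1.18 FPKM. Within LN and within KO tumor, replicate 3 had the highest Bak1 and the lowest sum (4.08 and 307 FPKM). In spleen, replicate 3 was highest in Bak1 with a sum of 392 FPKM, and replicate 1 had the highest sum, 712 FPKM. The part of these cells in the Bak1 level was not tested.

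**Figure D2:**
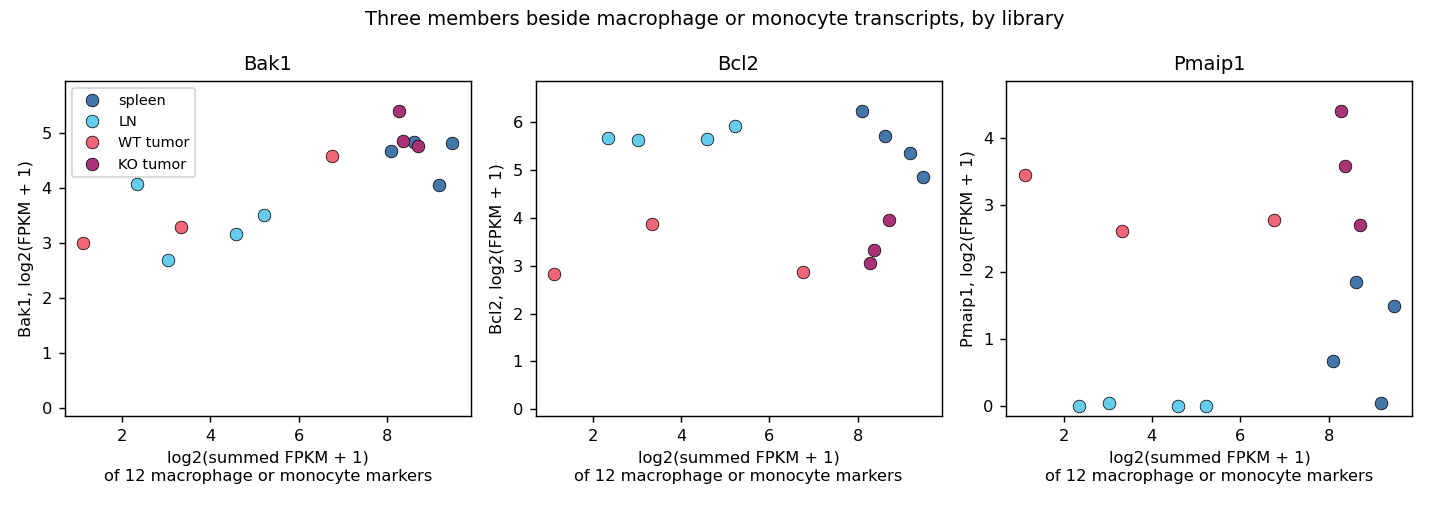
Level of Bak1, Bcl2 and Pmaip1 in log2(FPKM + 1) (y axes) against the summed FPKM of 12 macrophage or monocyte markers, as log2(sum + 1) (x axes), a point per library colored by group. Bak1 is above 15 FPKM in all spleen and KO tumor libraries, where the marker sum is 273 FPKM or more. It is also above 15 FPKM in LN 3 and WT tumor 2, where the sum is 4.08 and 107 FPKM. Bcl2 is lower and Pmaip1 higher in all tumor libraries than in all lymphoid libraries. The part of macrophages in these levels was not tested.

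All 9 members were tested in each comparison. WT tumor against spleen called 1 of 9 (Bcl2, lower), beside 1.9% of 9616 tested genes. WT tumor against LN called 2 (Bcl2 lower, Pmaip1 higher), beside 3.04%. LN against spleen called 0 of 9, beside 0.499%, and KO against WT tumor called 0 of 9, beside 0.28% of 8210 tested genes, so that a count of 0 is near the background there. In limma, 1 member, Bak1, had an unadjusted p under 0.05 in each of these comparisons (0.0256 and 0.0438). KO tumor called 2 against spleen (background 2.8% of 10147) and 2 against LN (3.42%), in both Bcl2 lower and Pmaip1 higher. In KO tumor tissue and genotype differ together from the lymphoid groups and cannot be told apart. Groups did not overlap for 3 members between WT tumor and spleen (background 11.5%), 2 between WT tumor and LN (17%), 0 between LN and spleen (7.87%), 1 between KO and WT tumor (14.5%), 2 between KO tumor and spleen (13.4%) and 3 between KO tumor and LN (16.9%). The median log2 difference of the members was -0.79 for WT tumor against spleen, where that of all tested genes was -0.07. It was -0.06 against LN (all genes -0.12) and 0.55 for KO against WT tumor (all genes 0.07). For LN against spleen it was -0.44 (all genes 0.02), for KO tumor against spleen 0.15 (0.02) and for KO tumor against LN 0.56 (-0.01).

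**Figure D3:**
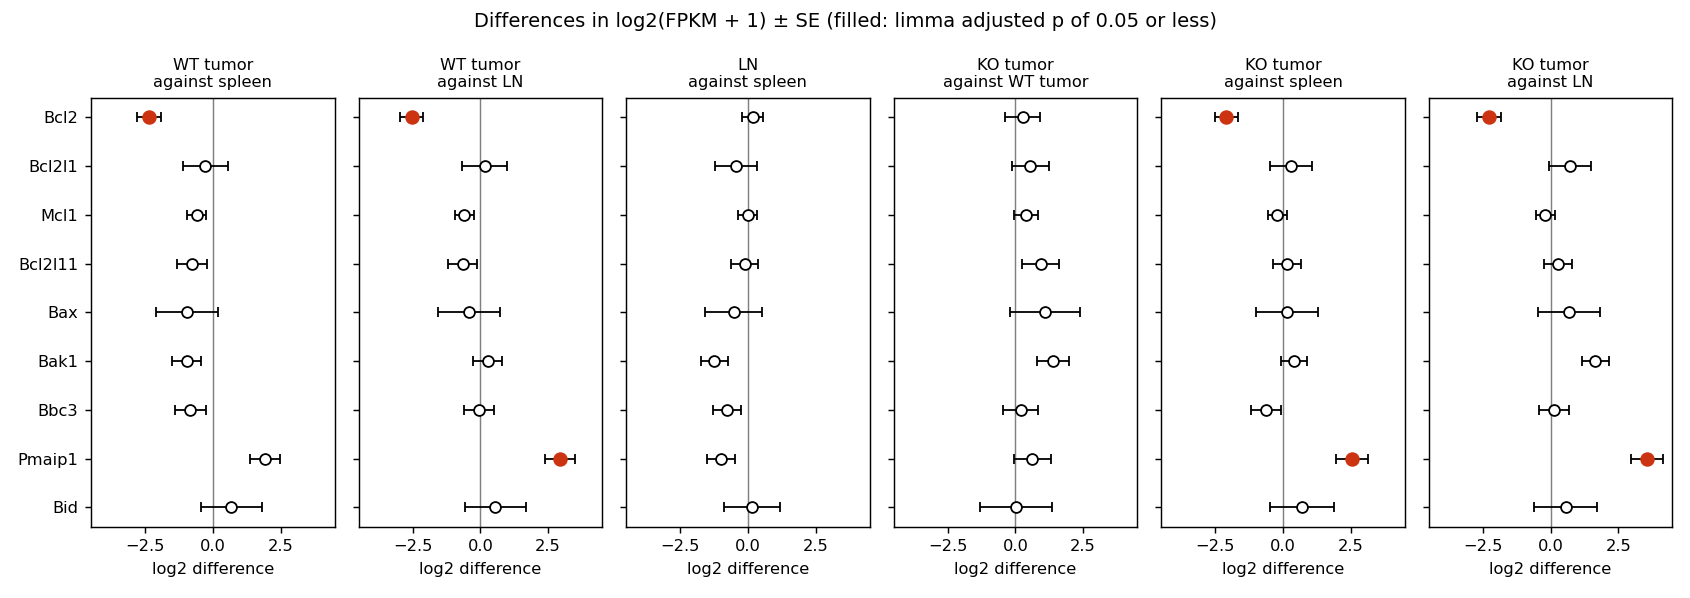
Differences in log2(FPKM + 1) ± SE (x axes) of the 9 members (y axis) in 6 comparisons, a panel each, from limma. Filled points have an adjusted p of 0.05 or less: Bcl2 in the 4 comparisons of tumor with lymphoid libraries, and Pmaip1 in 3 of them.

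The balance of the 2 sides was read in each library as the mean log2(FPKM + 1) of Bcl2, Bcl2l1 and Mcl1 minus that of the 6 pro-apoptotic genes. It is given without a test, since the members were chosen with results known. It was 2.02, 3.44, 1.93 and 3.79 in spleen 1 to 4 and 3.42, 3.16, 3.53 and 3.05 in LN 1 to 4. In WT tumor 2 to 4 it was 1.96, 2.88 and 0.77, and in KO tumor 1 to 3 it was 1.62, 2.28 and 0.80. All LN libraries lay above all tumor libraries, and spleen, with the wide range of its replicates, overlapped WT tumor and KO tumor. The group means were 2.80 ± 0.957 (SD) in spleen, 3.29 ± 0.223 in LN, 1.87 ± 1.06 in WT tumor and 1.57 ± 0.745 in KO tumor. The differences were -1.42 for WT tumor against LN, -0.93 for WT tumor against spleen and -0.30 for KO against WT tumor. The last changed sign without WT tumor 3 (0.20) or KO tumor 3 (0.082), and that against spleen was -0.38 without WT tumor 4 and -0.59 without spleen 4. Bcl2 and Pmaip1, tested above, are parts of the balance, so it adds no independent support. A balance without these 2 genes was not run, so a shift of the other members is not read from it.

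As summed FPKM, the anti-apoptotic side came to 188 ± 10.1 in LN and 203 ± 60.5 in spleen, and to 116 ± 59.6 in WT tumor and 142 ± 20.4 in KO tumor (mean ± SD, n = 4, 4, 3 and 3). The pro-apoptotic side came to 47.3 ± 8.55 in LN, 68.9 ± 28.9 in spleen, 61.3 ± 2.71 in WT tumor and 98.3 ± 35.9 in KO tumor. The ratio of the sums was 3.22 to 4.84 in LN, 1.24 to 6.22 in spleen, 0.959 to 2.78 in WT tumor and 0.872 to 2.004 in KO tumor. Over the members summed here it was below 1, with more pro- than anti-apoptotic FPKM, in WT tumor 4 and KO tumor 3 alone. Bcl2a1b and the other Bcl2 family genes are in neither these sums nor the balance. Their levels could change which libraries lie below 1.

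Shares of single members on each side were as follows. Bcl2 made up 16.9 to 30.5% of the anti-apoptotic FPKM in spleen and 26.0 to 29.4% in LN, but 5.29 to 10.9% in WT tumor and 6.04 to 8.93% in KO tumor. The share of Mcl1 was 54.7 to 68.9% in the lymphoid and 68.4 to 80.6% in the tumor libraries. The ratio of Mcl1 to Bcl2 was 2.02 to 3.35 in the 8 lymphoid libraries and 7.22 to 13.3 in the 6 tumor libraries. Pmaip1 made up 0 to 4.06% of the pro-apoptotic FPKM in the lymphoid libraries and 6.48 to 17.2% in the tumor libraries. Bcl2 stood at 5.01 to 7.27 times Bcl2l11 in LN and 1.54 to 10.4 times in spleen, at 1.14 to 2.47 times in WT tumor and 0.597 to 1.88 times in KO tumor. These ranges describe values whose parts, Bcl2 and Pmaip1, are tested above, and they add no independent support.

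**Figure D4:**
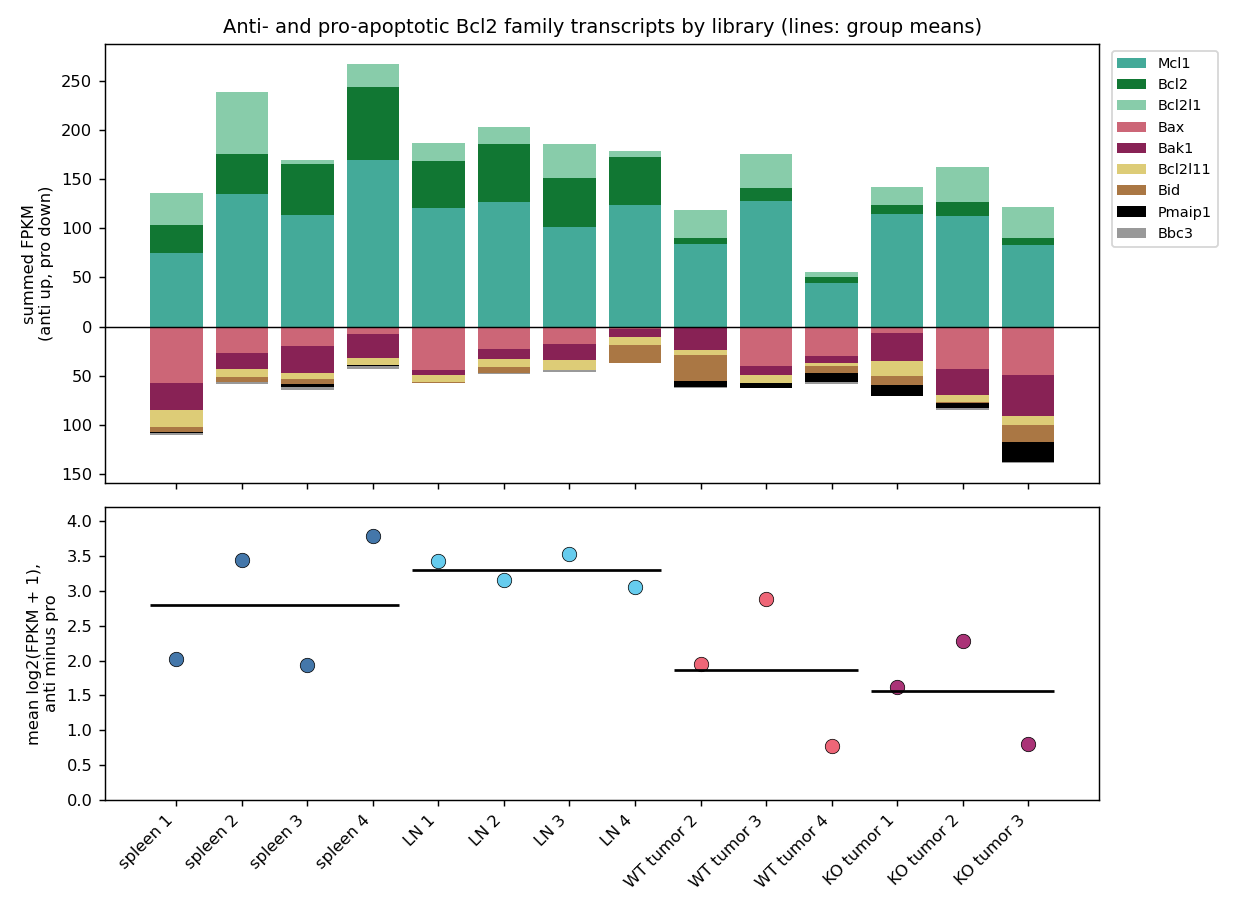
Upper panel: FPKM of the 3 anti-apoptotic members stacked upwards and of the 6 pro-apoptotic members stacked downwards in each library. Lower panel: balance as mean log2(FPKM + 1), anti minus pro, with group means as lines. LN lies between 3.05 and 3.53, WT tumor between 0.77 and 2.88 and KO tumor between 0.80 and 2.28.

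Other genes of the pathway were taken from 5 lists. Of 16 other Bcl2 family names 12 were in the table and 6 were tested in the comparisons of tissues (4 between KO and WT tumor). None passed in any comparison. Bcl2a1c, a gene of the A1 family like Bcl2a1b and named here after its values were seen, ran from 0 to 2.09 FPKM in the lymphoid and from 0 to 11.96 FPKM in the tumor libraries, which overlap. Reads of the near-identical A1 copies can be divided among them, so its level is uncertain. None of 10 inhibitor of apoptosis genes passed in any comparison. Among all tested genes 0.28% to 3.42% were called, so a count of 0 is near the background for both lists. It is not read as a result about either. The median log2 difference of the inhibitor genes was 0.45 for WT tumor against spleen (all tested genes -0.07), 0.47 against LN (-0.12), 1.27 for KO tumor against spleen (0.02) and 0.88 against LN (-0.01).

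Of 12 tested genes of the p53 arm 2 rose and none fell in each of the 4 comparisons of tumor with lymphoid libraries. They were Cdkn1a (the cyclin kinase inhibitor p21), which halts the cell cycle, and Gadd45b, a stress sensor also induced by NF-kB. Among all tested genes 1.9% and 3.04% were called for WT tumor and 2.8% and 3.42% for KO tumor, against spleen and LN. WT tumor 2 to 4 had 4.74, 16.3 and 13.8 FPKM of Cdkn1a, and KO tumor 1 to 3 had 7.58, 9.32 and 19.8 FPKM, against 0 to 0.804 FPKM in all lymphoid libraries. Cdkn1a reached 1 FPKM in tumor libraries alone, so it too entered the tests through the groups where it is high, and in the fit for WT tumor it was not tested without any 1 WT tumor library. Its differences were 3.21 ± 0.56 (WT tumor against spleen, limma adjusted p = 0.0106), 3.23 ± 0.56 (against LN, adjusted p = 0.00549), 3.32 ± 0.58 (KO tumor against spleen, adjusted p = 0.00404) and 3.33 ± 0.58 (against LN, adjusted p = 0.00333). The first was lost in a fit of the 2 groups only (0.0643) and with the replicate block (0.0506). Gadd45b stood at 209 to 318 FPKM in WT tumor, 244 to 428 FPKM in KO tumor and 1.63 to 42.6 FPKM in lymphoid libraries. It rose by 4.40 ± 0.74 from LN to WT tumor (adjusted p = 0.00453), by 3.89 ± 0.68 from spleen to KO tumor (adjusted p = 0.00417) and by 4.85 ± 0.68 from LN to KO tumor (adjusted p = 0.000658). Its WT tumor difference from spleen, 3.44 ± 0.74 (adjusted p = 0.0293), was lost without spleen 2 (0.0706), spleen 4 (0.0709) or any 1 of WT tumor 2, 3 and 4 (0.0749, 0.107 and 0.0760). That call was also lost with pseudocount 0.1 (0.0533), without the filter on low values (0.109) and with array weights (0.112). The list median was 0.42 for WT tumor against spleen (all tested genes -0.07), 0.26 against LN (-0.12), 0.34 for KO tumor against spleen (0.02) and 0.17 against LN (-0.01).

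Of 18 regulators of Bcl2 family proteins and survival inputs 1 rose in each of the same 4 comparisons, Pim1, a kinase that inactivates Bad and is induced by cytokines. Of all tested genes 1.9% and 3.04% were called in WT tumor and 2.8% and 3.42% in KO tumor, against spleen and LN, and 1 of 18 is near that share. Its levels were 132, 154 and 175 FPKM in WT tumor 2 to 4 and 172, 118 and 143 FPKM in KO tumor 1 to 3, against 26.8 to 62.6 FPKM in spleen and 11.8 to 30.0 FPKM in LN. The tumor values lay above all lymphoid values. From LN it rose by 2.73 ± 0.40 to WT tumor (limma adjusted p = 0.00190) and by 2.64 ± 0.37 to KO tumor (adjusted p = 0.000610). From spleen it rose by 1.83 ± 0.40 (adjusted p = 0.0344) and 1.73 ± 0.37 (adjusted p = 0.0163). The first of these was lost without spleen 1 (0.0702), 3 (0.0587) or 4 (0.0737) or any 1 WT tumor library (0.0721, 0.0946 and 0.109), the second without KO tumor 1 (0.0873) or 3 (0.0635). The first was also lost without the filter on low values (0.0659), in a fit of the 2 groups only (0.0573) and with array weights (0.0856).

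Of 12 death receptor genes 1 passed in KO tumor against spleen and against LN, Fasl, the ligand of Fas. Among all tested genes 2.8% and 3.42% were called there, so 1 of 12 is not read as a result about the list. KO tumor 1 to 3 had 24.6, 19.1 and 6.16 FPKM of Fasl, and the WT tumor libraries had 10.005, 9.83 and 0.322 FPKM, against 0 to 0.881 FPKM in lymphoid libraries. The tumor groups overlapped, and 2 of 3 WT tumor libraries also lay above all lymphoid libraries. Fasl reached 1 FPKM in tumor libraries alone, so it entered the tests through the group where it is high. Only 2 of 3 WT tumor libraries reached 1 FPKM, fewer than the filter asks. Fasl was therefore not tested for WT tumor against spleen or LN. To KO tumor it rose by 3.61 ± 0.74 from spleen (limma adjusted p = 0.0126) and 3.78 ± 0.74 from LN (adjusted p = 0.00735). The former call was lost without KO tumor 1 (0.0677) or KO tumor 2 (0.0595). No member of these lists passed between LN and spleen or between KO and WT tumor, where limma called 48 of 9616 and 23 of 8210 genes in all.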

How the data were processed

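Tools in the submitters' processing notes are, in no order, Cufflinks 2.2.1 with Cuffdiff, DESeq2, Bowtie2 2.2.9, TopHat2 2.1.1 and Trimmomatic, and the build is mm10 (GRCm38). The deposited values are FPKM, 1 file per library, made by the authors from Smart-Seq2 libraries of low-input total RNA, per the labels' protocols. The annotation they used is not given in the sources used here. Gene positions are those of GENCODE M21 for GRCm38 (22196 of 22255 identifiers matched). Cufflinks can divide reads among isoforms and overlapping genes, which moves single values.

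Robust limma-trend (limma 3.58.1, R 4.3.3) on log2(FPKM + 1) was fitted over genes with 1 FPKM in at least 3 libraries of the fit: 11 spleen, LN and WT tumor libraries for comparisons among them, 6 tumor libraries for KO against WT tumor, and all 14 for KO tumor against spleen or LN. Adjusted p is Benjamini-Hochberg over all tested genes, with a threshold of 0.05. The log2(FPKM + 1) scale understates changes of low genes. Depth came from low values of genes with 1 transcript of at least 800 bp, of which 93.0 to 96.0% were whole reads within 0.1. Results for 1 list of pathway genes are not reported here. Members and lists were chosen with earlier results of these data known. Named genes are all members, Cd36 and Foxp3, up to 3 members of a list past the threshold per comparison, and the 3 most alike patterns, with Bcl2a1c chosen after its values were seen. Python 3.11.15, numpy 2.4.6, pandas 2.3.3 and matplotlib 3.10.9 did the rest.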

Additional observations from a re-analysis of the deposited data

Results flagged for a closer look

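In the groups of 4 libraries, 18 sets of member values were checked for a library far from the others, and 3 were found. Chance finds about 1 in 20 where values are normally distributed, which FPKM need not be. No excess is therefore read from the 3. Bcl2 was highest in LN 2, at 59.6 FPKM, the other LN libraries lying from 48.4 to 50.1 FPKM. Pmaip1 was above 0 in LN 1 alone, at 0.0355 FPKM, under the level that 3 reads would give at the smallest depth estimated. A set with a single value above 0 is flagged whatever that value is. Bid was lowest in spleen 4, at 0.279 FPKM, the others lying from 4.33 to 5.06 FPKM.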

How the results depend on the processing

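Over 54 member differences and 728 alternative values, 662 kept direction and side of the threshold, 12 lost a call, 1 gained one, 0 called values changed sign and 53 that were not called changed sign. The 12 were Bcl2 and Pmaip1 against spleen. Beyond those given with the genes, Pmaip1 for KO tumor against spleen lost its call with pseudocount 0.1 (adjusted p = 0.0856), in a fit of the 2 groups only (0.119) and with the replicate block (0.0552). The cause was not tested. Genes past the threshold numbered 183 for WT tumor against spleen, 112 without the filter on low values, 87 when fitted without other groups, 107 with array weights and 89 with the replicate block. For WT tumor against LN they numbered 292, and 186 with the replicate block. For LN against spleen they numbered 48, 16 without the filter and 20 with the replicate block. For KO against WT tumor they numbered 23, 0 without the filter (limma, 769 at an unadjusted p under 0.05), 60 in a fit of all 14 libraries and 6 with the replicate block. For KO tumor against spleen they numbered 284, with 185 when fitted without other groups. For KO tumor against LN no such alternative moved the 347 by over 1.5 times. Leaving out 1 library gave 82 to 173, 183 to 268, 13 to 35, 9 to 15, 158 to 269 and 203 to 267 genes in this order of comparisons. Scaled to the protein-coding total, WT tumor against LN had 162 higher and 153 lower genes, against 182 and 110, and the median of all genes was 0.096 lower.

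The balance for KO tumor against LN was -1.73, and -2.33 with pseudocount 0.1. Without 1 library the balance differences ran from -1.43 to -0.38, -1.93 to -0.87, 0.21 to 0.83, -0.85 to 0.20, -1.59 to -0.84 and -2.09 to -1.34. A balance without Bcl2a1b was not run separately, since the reported balance already holds no Bcl2a1b. Deviations of same-numbered libraries from their group means correlated at -0.0276 to 0.0301. These values cannot tell whether such libraries came from the same animal, so pairing is unknown. Under the block Cdkn1a, Gadd45b and Pim1 (WT tumor against spleen, limma adjusted p = 0.0506, 0.0967 and 0.0784) also lost their calls. With 3 or 4 libraries per group, members that vary as widely as Bax and Bid limit what could be detected.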
